A study of Mus musculus with 18 samples.

Results

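The genes described here are the clustered histone genes of the mouse, taken as every gene of the expression table whose name begins with Hist1h, Hist2h, Hist3h or Hist4h. The rule found 68 genes among 23418, of which 6 code for the linker histone H1, 18 for H2A, 19 for H2B, 12 for H3 and 13 for H4. By cluster, 54 carry the name Hist1, 10 Hist2, 3 Hist3 and 1 Hist4. They were measured in polyA RNA of leukemia cells of C57BL/6 mice. The cells carried 1 of 3 fusions of the MLL protein with a partner protein: MLL-AF9, or MLL-AF6, or else MLL-AF1p. Cells of each construct received 6 µM of the small molecule MI-2-2, which blocks the binding of menin to MLL, or the solvent DMSO alone for 6 days, and both arms held 0.25% DMSO. That makes 6 groups of 3 libraries, 18 in all, and all 6 groups share the strain, the culture medium and the change of medium with fresh compound on day 3. The vector that carried each construct, and whether the libraries of a group came from separate cultures or transformations, are not given in the sources used here. So the spread behind each p-value below is that of these libraries and may be technical.

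Most clustered histone genes have no introns and are transcribed in S phase, when new DNA is packed into nucleosomes. Their mRNA normally ends a few bases after a short stem-loop that is bound by the protein SLBP, and it carries no polyA tail, so a library made from polyA RNA holds little of it. Some members also give longer transcripts that run past the stem-loop to an ordinary polyA signal, and such transcripts are known in differentiated cells. H2A, H2B, H3 and H4 form the core of the nucleosome, and H1 binds the DNA between nucleosomes.

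The ends of the transcripts are shown because they bear on what a polyA library can catch. For each member, the reference transcript (GENCODE M21, GRCm38) was searched after the coding sequence for the histone downstream stem-loop and for the polyA signal AATAAA on the transcript's strand. The stem-loop was found in 45 of 68 members, 24 to 54 bases after the coding sequence in the members printed here. Many of the other reference transcripts end with the coding sequence or within 2 bases of it, Hist1h1b, Hist1h4k and Hist2h2bb among them. Neither feature could be found in those, whatever the gene itself holds. The lines below show the stem-loop in 6 members, and capitals mark its 16 bases, a stem of 6 base pairs around a loop of 4.

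Hist1h1c stem-loop: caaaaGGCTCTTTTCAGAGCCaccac
Hist3h2a stem-loop: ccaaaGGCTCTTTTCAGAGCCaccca
Hist1h4i stem-loop: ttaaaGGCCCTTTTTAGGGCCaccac
Hist1h1d stem-loop: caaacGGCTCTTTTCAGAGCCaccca
Hist1h2bg stem-loop: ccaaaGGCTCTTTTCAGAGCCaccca
Hist4h4 stem-loop: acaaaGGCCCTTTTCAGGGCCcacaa

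The stem-loops of Hist3h2a and Hist1h2bg were the same over all 26 bases printed, although one gene codes for an H2A and the other for an H2B. Over the 45 members there were 8 different stem-loops. The most common one, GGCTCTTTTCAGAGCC, was in 25 members of the classes H1, H2A, H2B and H3. The H4 genes had forms of their own, of which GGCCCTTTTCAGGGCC was in 7 members and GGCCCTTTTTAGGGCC in 2. An AATAAA lay somewhere after the coding sequence in 19 members, and those 19 held 86.0% of all reads on clustered histone genes, as a mean over the 18 libraries. In 12 members it lay within the last 50 bases of the reference transcript, and these 12 held 73.8% of the reads. Hist1h1c, which is in both sets, alone held 53.9%. The reads come from the authors' gene models, whose lengths can differ from the reference transcripts. Listed and reference lengths were 1562 and 1560 bases for Hist1h1c, but 313 and 1138 for Hist1h4d and 349 and 1630 for Hist2h4. For Hist1h2be the listed length was the longer, 4990 against 2506. Reads on an end outside a listed length may be missing from these shares. Of the 15 members that reached RPKM 1 in at least 3 libraries, 7 had an AATAAA after the coding sequence. In 5 of these 15 it lay within the last 50 bases. For the other 53 members these numbers were 12 and 7. Members whose reference transcript ends with the coding sequence count here as lacking an AATAAA, in both sets. Transcripts of 23 members ran 100 bases or more past the stem-loop, and 10 of these also had AATAAA within the last 50 bases. The AATAAA of the 4 members with the most reads is printed in capitals with its neighbours.

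Hist1h1c polyA signal: gtatgcttctAATAAAaagcgtttag
Hist2h2be polyA signal: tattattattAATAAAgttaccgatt
Hist1h2bc AATAAA: atgtatatatAATAAAtgtcatgtaa
Hist3h2a polyA signal: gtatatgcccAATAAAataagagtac

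Hist1h1c had both features, with 840 bases after its stem-loop and the AATAAA 20 bases before the end of a transcript of 1560 bases. Hist3h2a had both as well, with 1643 bases after the stem-loop. The stem-loop was not found by this search in Hist2h2be or Hist1h2bc. In Hist1h2bc the AATAAA began at base 710 of a reference transcript of 1156 bases, and the authors' table lists the gene at 730 bases. Hist1h4i ran 330 bases past its stem-loop without an AATAAA in these letters.

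Promoters are shown for 2 H1 genes, Hist1h1c, the most read member, and Hist1h1d, because H1 promoters are known for an element of their own. RefSeq promoters (GRCm38.p6, 250 bases before to 50 after the start) matched 61 of the 68 members. The H1 promoter element AAACACA, searched on both strands, was in 5 of 6 H1 promoters, in 4 of the 55 promoters of other members and in 7.1% of 27025 mouse promoters. CCAAT on both strands was in 52 of 61 member promoters (85.2%) against 37.9% of all, and TATAAA on the gene's strand was in 30 (49.2%) against 8.9%. In the promoters of Hist1h1c (chr13:23738557-23738856, plus strand) and Hist1h1d (chr13:23554782-23555081, plus strand), capitals mark the matches to AAACACA and to CCAAT, and in Hist1h1d the match to TATAAA.

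Hist1h1c promoter: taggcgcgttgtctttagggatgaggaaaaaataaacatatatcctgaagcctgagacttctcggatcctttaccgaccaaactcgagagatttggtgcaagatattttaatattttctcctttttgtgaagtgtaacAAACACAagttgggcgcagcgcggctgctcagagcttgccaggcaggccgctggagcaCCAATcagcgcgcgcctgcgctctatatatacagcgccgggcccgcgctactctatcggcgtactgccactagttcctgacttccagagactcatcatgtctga
Hist1h1d promoter: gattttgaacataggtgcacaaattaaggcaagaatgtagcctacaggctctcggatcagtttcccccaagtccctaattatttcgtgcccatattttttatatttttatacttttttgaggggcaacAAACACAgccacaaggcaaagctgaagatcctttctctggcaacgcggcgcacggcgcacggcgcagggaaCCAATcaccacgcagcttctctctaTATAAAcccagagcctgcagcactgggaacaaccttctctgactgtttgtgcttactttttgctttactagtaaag

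AAACACA began 112 bases before the start in Hist1h1c and 122 in Hist1h1d, and CCAAT 54 and 51 bases before it, both on the gene's strand. TATAAA began 26 bases before the start of Hist1h1d, and these letters were not in the window of Hist1h1c.

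Expression was read as the authors' RPKM, the reads per kilobase of gene and per 1000000 counted reads. RPKM times gene length gave whole reads in every library, so each value also stands for a read count. Depth was 21.18 to 56.3 M counted reads per library, and 1660 to 10712 of these reads fell on clustered histone genes. The MLL-AF1p libraries were the deeper ones, at 48.88 to 56.3 M, against 21.18 to 30.67 M for those of the other constructs. An RPKM of 1 or more was reached in at least 1 library by 28 members, in at least 3 libraries by 15 and in all 18 libraries by 5. The 5 were Hist1h1c, Hist2h2be, Hist1h2bc, Hist3h2a and Hist1h4i. By library, 8, 11 and 9 members reached RPKM 1 under DMSO and 19, 20 and 16 with MI-2-2 in MLL-AF9 cells. In MLL-AF6 cells the numbers were 6, 6 and 7 against 7, 7 and 7, and in MLL-AF1p cells 9, 8 and 9 against 10, 10 and 8. The treated MLL-AF9 libraries thus held more members at this level than any other library. Among all genes of the table, 48.0% reached RPKM 1 in at least 3 libraries, against 22.1% of the members. A further 33 members had reads and never reached RPKM 1, and 7 had 0 reads in all 18 libraries (Hist1h2ao, Hist1h2ap, Hist1h2ba, Hist1h2bq, Hist1h2br, Hist1h4n and Hist2h2aa1). A count of 0 in 624.5 M reads allows up to 0.0048 reads per 1000000 (3 reads, counting error only).

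**Figure D1:**
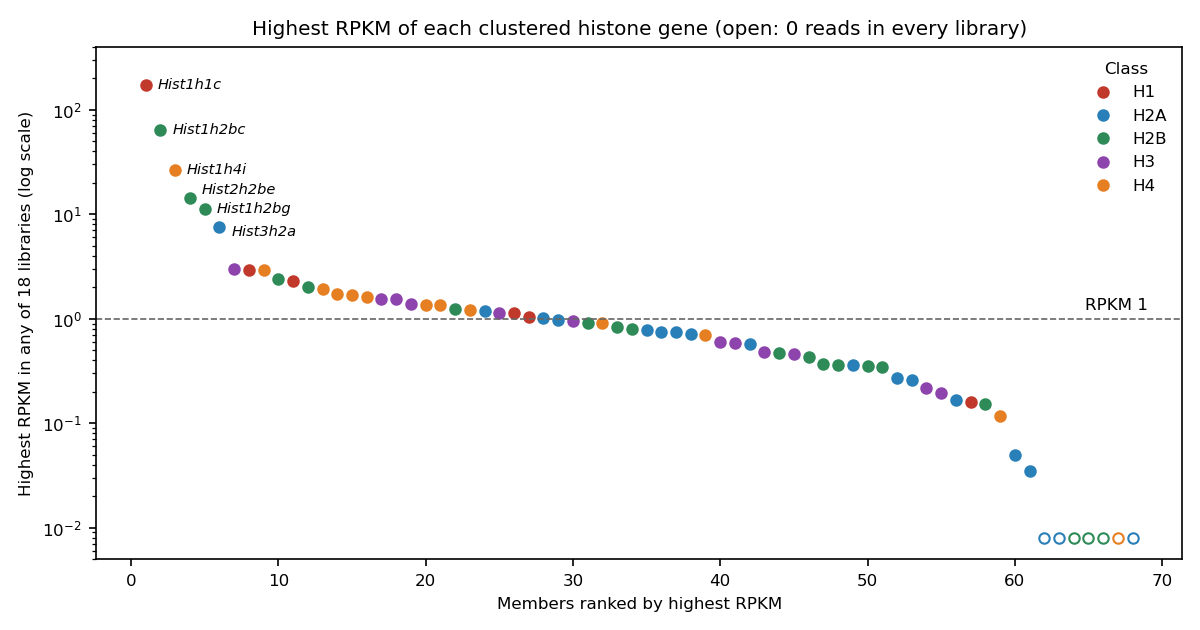
Highest RPKM of each of the 68 members in any of the 18 libraries, on a log scale, ranked from highest to lowest and coloured by histone class; open circles stand for the 7 members with 0 reads, drawn at the foot of the plot. The dashed line marks RPKM 1, which 28 members reached.

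Members just inside and just outside the threshold lay close together. Hist1h1d and Hist4h4 reached RPKM 1 in 3 libraries, and Hist1h2ae, Hist1h3c, Hist1h2bh, Hist1h4c and Hist1h4j in 2. By class, RPKM 1 was reached in at least 1 library by 5 of 6 H1 genes, 9 of 13 H4 genes, 5 of 12 H3 genes, 6 of 19 H2B genes and 3 of 18 H2A genes. Histone genes of a class are near copies of each other, and a read that matches several copies may be dropped or split in counting, in a way not given in the sources used here. Of the windows of 50 bases in a member's transcript, the share found in no other gene had a median of 98.8% for H1, 60.5% for H4, 56.2% for H2B, 42.8% for H3 and 27.0% for H2A. It was 89.8% for the 15 members that reached RPKM 1 in 3 libraries and 45.9% for the other 53. Of the 7 members without reads, 4 had under 10% of windows of their own, while in Hist1h2ba, a testis histone H2B, 61.8% were its own. Low values of members with few windows of their own are therefore uncertain, Hist1h4k (28.5%) and Hist1h2bj (40.6%) among the named genes included.

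Few genes carried most of the signal. As a mean over libraries, Hist1h1c, which codes for linker histone H1.2, held 53.9% of the reads on clustered histone genes. Hist2h2be held 10.7%, Hist1h2bc 10.2%, Hist3h2a 6.29%, Hist1h4i 5.69% and Hist1h1e 1.17%, so that these 6 genes held 87.9% and the other 62 shared the rest. Histone H3 had no gene among the 6. Its most read gene was Hist2h3c1, with 1.10% of the reads.

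The H2A and H2B genes lie largely in divergent pairs that share the DNA between their start sites, and 13 such pairs, 26 members, had starts within 500 bases. In some pairs 1 partner was far above the other. Hist1h2bc reached 63.8 RPKM and Hist1h2ac, whose start lies 251 bases away, 1.02. Hist2h2be reached 14.4 and Hist2h2ac, 239 bases away, 0.774. Hist3h2a reached 7.49 and Hist3h2bb-ps, 173 bases away, 0.467. Others were close, such as Hist1h2an and Hist1h2bp at most 0.36 and 0.354, and in 2 pairs, Hist1h2ap with Hist1h2br and Hist1h2bq with Hist1h2ao, both partners were at 0. Strand was not marked by the library kit, and overlapping transcripts of opposite strands cannot be separated.

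Reads on the 68 genes together were higher with MI-2-2 in every construct, and Hist1h1c made up most of the difference. Sums are given as RPM, reads per 1000000 counted reads, which unlike RPKM do not divide by gene length. In MLL-AF9 cells the libraries held 236, 190 and 252 RPM on clustered histone genes under DMSO and 388, 319.5 and 390 with MI-2-2. In MLL-AF6 cells they held 91.4, 58.7 and 66.6 and 184, 126 and 149.8. In MLL-AF1p cells they held 53.6, 55.1 and 50.2 and 78.2, 70.1 and 73.6. Treated and control libraries did not overlap in any of the 3 constructs, and the ratios of means were 1.62, 2.13 and 1.4. Under DMSO, MLL-AF9 held the most, 226 ± 32.3 (SD, n = 3), against 72.2 ± 17.1 in MLL-AF6 cells and 53 ± 2.5 in MLL-AF1p cells. In bulk RNA, fewer cells that express a gene and less of its RNA per cell cannot be told apart.

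Without Hist1h1c, the other 67 members together held 109 ± 21.4 RPM under DMSO and 117 ± 7.79 with MI-2-2 in MLL-AF9 cells, a ratio of 1.07. The ratios were 1.34 in MLL-AF6 cells and 1.06 in MLL-AF1p cells, and treated and control libraries overlapped in all 3 constructs. The 62 members outside the 6 largest followed another course. In MLL-AF9 cells they held 18.2, 14.5 and 17.1 RPM under DMSO and 37.6, 36.6 and 40 with MI-2-2, a ratio of 2.3 with no overlap. In MLL-AF6 and MLL-AF1p cells their ratios were 1.34 and 1.13, and the libraries overlapped. In MLL-AF9 cells with MI-2-2, the 62 held 848 to 1042 reads per library. Of these reads, Hist1h1d held 146 to 185, Hist1h2bg 144 to 181 and Hist4h4 104 to 123. Under DMSO these genes held 25 to 46, 37 to 86 and 24 to 47 of 319 to 496 reads.

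**Figure D2:**
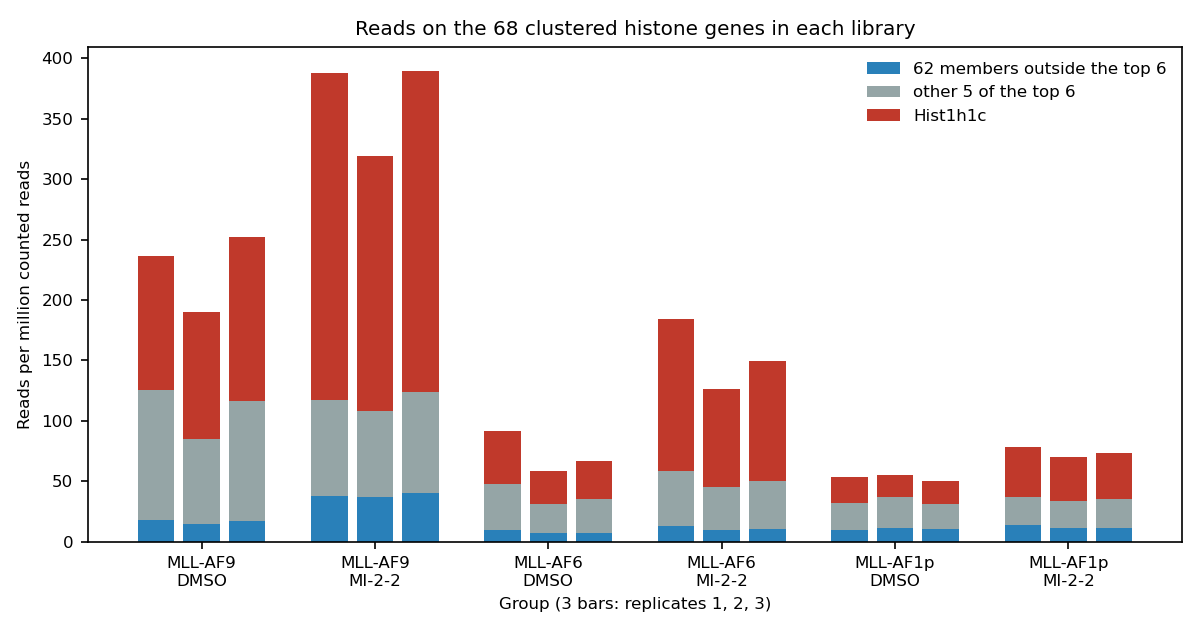
RPM (reads per 1000000 counted reads) on the clustered histone genes, 1 bar per library, split into Hist1h1c (red), the other 5 of the 6 largest members (grey) and the remaining 62 members (blue). The red part is larger with MI-2-2 than with DMSO in each construct, and the blue part is larger with MI-2-2 in MLL-AF9 cells.

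By class, reads on H1 genes were higher without overlap in each construct, with ratios of 2.16 in MLL-AF9 cells, 2.94 in MLL-AF6 cells and 1.77 in MLL-AF1p cells. The 4 H1 genes outside the 6 largest went from 2.02 ± 0.416 to 8.71 ± 1.78 RPM in MLL-AF9 cells, a ratio of 4.32. Hist1h1d held 146 to 185 of their 200 to 235 reads with MI-2-2, and 25 to 46 of 37 to 72 under DMSO. In that construct the small H2B genes (2.51), H4 genes (2.45), H2A genes (1.63) and H3 genes (1.54) were also higher with MI-2-2 with no overlap, as ratios of means over the members outside the 6 largest. Hist1h2bg held 144 to 181 of the 209 to 303 reads on the small H2B genes with MI-2-2, and 37 to 86 of 75 to 139 under DMSO. Hist4h4 went from 1.28 to 4.44 RPM, while the small H4 genes with it included went from 3.07 to 7.53. The small H4 genes had ratios of 1.04 in MLL-AF6 cells and 0.986 in MLL-AF1p cells, where the libraries overlapped. By cluster, the Hist2 genes as a sum were lower with MI-2-2 in MLL-AF1p cells, 9.56 ± 0.886 against 8.44 ± 0.372 RPM, and higher in MLL-AF6 cells, 9.94 ± 2.04 against 14 ± 0.737, both with no overlap. These sums carry no test.

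Single genes were tested with limma on log2(RPKM + 0.5) over the 11238 genes that reached RPKM 1 in at least 3 libraries, and rose and fell stand below for a Benjamini-Hochberg adjusted p under 0.05. The scale understates the change of low genes. Of the members, 15 could be tested: 3 H1, 1 H2A, 5 H2B, 1 H3 and 5 H4 genes. Hist1h1d and Hist4h4 passed the filter only through the treated MLL-AF9 libraries, so they had to be high there. In MLL-AF9 cells 6 of the 15 rose with MI-2-2 and 0 fell (28.5% of all tested genes rose and 27.9% fell), or 4 of 13 without Hist1h1d and Hist4h4. Hist1h1b, 1 of these 4, reached RPKM 1 in 3 treated MLL-AF9 libraries and in 2 MLL-AF1p DMSO libraries. Without the treated MLL-AF9 libraries it would not have passed the filter either. In MLL-AF6 cells 5 rose and 0 fell (18.02% and 38.9% of all), and in MLL-AF1p cells 2 rose and 0 fell (19.1% and 26.3%). The median log2 difference of the 15 was 0.38, 0.26 and 0.06 in MLL-AF9, MLL-AF6 and MLL-AF1p, beside −0.001, −0.16 and −0.06 for all tested genes. The count in MLL-AF6 cells was 1 without DMSO replicate 2 or replicate 3, 2 without MI-2-2 replicate 1 and 3 without MI-2-2 replicate 3, and that in MLL-AF1p cells was 1 without DMSO replicate 3 or MI-2-2 replicate 3. With genes kept from RPKM 0.3, 47 members could be tested and 19 rose in MLL-AF9 cells with 0 lower, beside 27.2% of all genes then tested that rose. Of the 15, 1 rose in all 3 constructs, 2 in 2, 6 in 1 and 6 in none. The like shares over all tested genes were not counted, so nothing about the members is read from these 4 numbers.

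**Figure D3:**
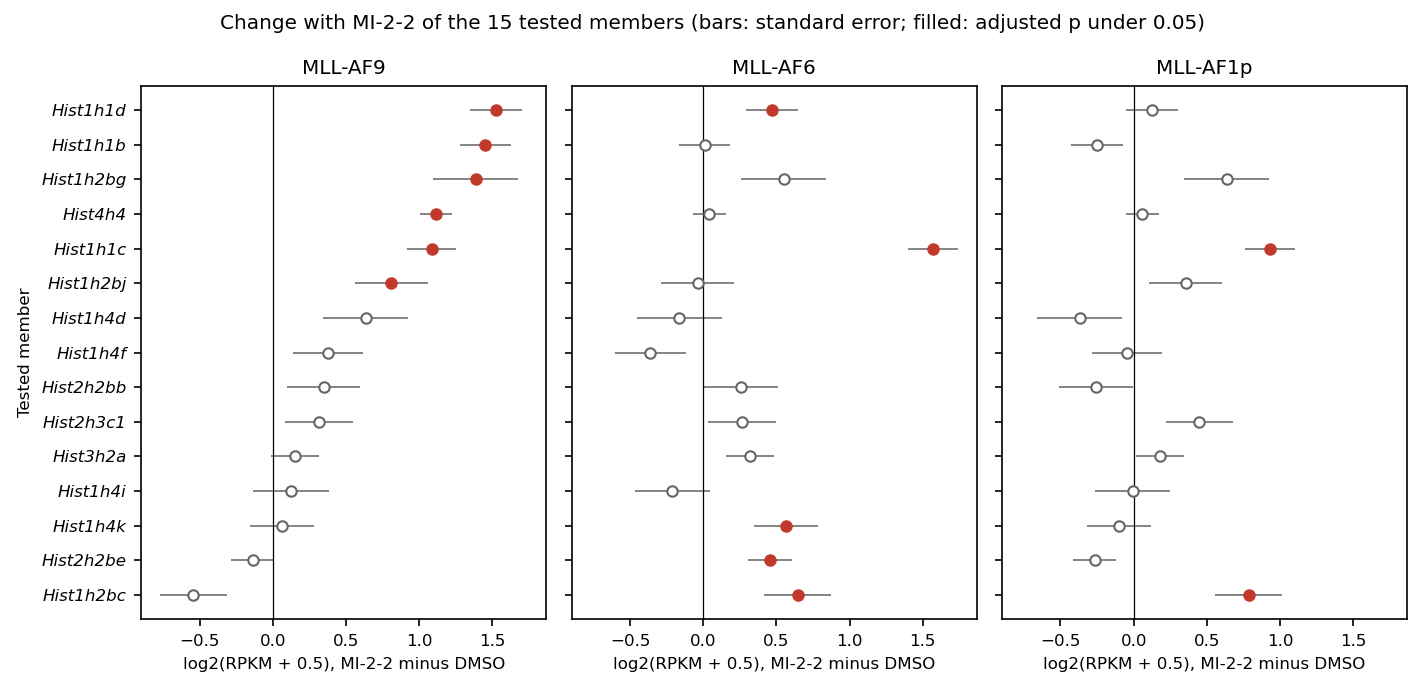
Difference of mean log2(RPKM + 0.5), MI-2-2 minus DMSO, for the 15 tested members in each construct; points are estimates, bars standard errors, and filled points have an adjusted p under 0.05. Hist1h1c is filled in all 3 panels, while Hist1h1d, Hist1h1b, Hist1h2bg and Hist4h4, at the top of the MLL-AF9 panel, are open in the MLL-AF1p panel.

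Hist1h1c was the member that rose in every construct. In MLL-AF9 cells it read 70.9, 67.2 and 86.7 RPKM under DMSO and 173, 135 and 170.2 RPKM with MI-2-2. In MLL-AF6 cells it read 27.8, 17.4 and 19.9 RPKM under DMSO and 80.3, 51.9 and 63.8 RPKM with MI-2-2. In MLL-AF1p cells it read 14.1, 11.9 and 12.4 RPKM under DMSO and 26.6, 23.5 and 24.6 RPKM with MI-2-2. Each treated library lay above each control of its construct. The log2 differences were 1.08 ± 0.17 (SE; limma, Benjamini-Hochberg adjusted p = 5.9e-05) in MLL-AF9 cells, 1.57 ± 0.17 (adjusted p = 1.5e-06) in MLL-AF6 cells and 0.93 ± 0.17 (adjusted p = 0.000375) in MLL-AF1p cells. Its share of the reads on clustered histone genes was 52% under DMSO against 68% with MI-2-2 in MLL-AF9 cells, 46.9% against 66.2% in MLL-AF6 cells, and 37.8% against 52.5% in MLL-AF1p cells. The difference in response between MLL-AF6 and MLL-AF1p did not pass (limma, 0.64, 95% interval 0.13 to 1.15, adjusted p = 0.0549). It passed without MLL-AF6 DMSO replicate 1 (0.83, adjusted p = 0.0103) or MI-2-2 replicate 2 (0.79, adjusted p = 0.0208), with median centring (0.68, 0.0456) and with quantile normalization (0.69, 0.0428). With replicate number as a block in the limma fit it passed too (0.64, adjusted p = 0.00699). That between MLL-AF9 and MLL-AF6 did not pass either (limma, −0.49 ± 0.24, adjusted p = 0.132), and it did without MLL-AF6 DMSO replicate 1 (−0.68, adjusted p = 0.0275). The replicate block made it pass as well (−0.49, adjusted p = 0.0276). Replicate 2 held the lowest Hist1h1c value in each of the 6 groups.

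Of the other H1 genes, all far lower, Hist1h1d and Hist1h1b could be tested. Hist1h1d, which codes for H1.3, read 0.378, 0.443 and 0.532 RPKM under DMSO and 2.17, 1.72 and 2.93 RPKM with MI-2-2 in MLL-AF9 cells, 25 to 46 reads against 146 to 185. In MLL-AF6 cells it read 0.222, 0.202 and 0.144 RPKM under DMSO and 0.788, 0.26 and 0.38 RPKM with MI-2-2, and in MLL-AF1p cells 0.191, 0.349 and 0.268 RPKM under DMSO and 0.4, 0.267 and 0.344 RPKM with MI-2-2. The treated libraries stood clear of the controls in MLL-AF9 and MLL-AF6 cells and overlapped them in MLL-AF1p cells. It rose by 1.52 ± 0.18 (log2, SE; limma, Benjamini-Hochberg adjusted p = 3.0e-06) in MLL-AF9 cells and by 0.47 ± 0.18 (adjusted p = 0.0354) in MLL-AF6 cells. The MLL-AF6 call was lost without DMSO replicate 2 (0.48, adjusted p = 0.061), DMSO replicate 3 (0.42, 0.103) or MI-2-2 replicate 1 (0.25, 0.214). It was lost as well after quantile normalization (0.34, adjusted p = 0.157) and with the MLL-AF6 libraries fitted alone (adjusted p = 0.0928).

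Hist1h1b, which codes for H1.5, read 0.334, 0.406 and 0.562 RPKM under DMSO and 2.32, 1.67 and 2.18 RPKM with MI-2-2 in MLL-AF9 cells, on 5 to 11 and 31 to 43 reads. The MLL-AF6 libraries read 0.737, 0.315 and 0.638 RPKM under DMSO and 0.484, 0.406 and 0.812 RPKM with MI-2-2, and those of MLL-AF1p 1.11, 0.848 and 1.25 RPKM under DMSO and 0.815, 0.692 and 0.938 RPKM with MI-2-2. The groups stood apart in MLL-AF9 cells alone. It rose there by 1.45 ± 0.18 (log2, SE; limma, Benjamini-Hochberg adjusted p = 4.3e-06), and did not pass elsewhere, with 0.01 for MLL-AF6 and −0.25 for MLL-AF1p. Hist1h1e, which codes for H1.4, reached RPKM 1 in 1 library only and was not tested. It read 0.466, 0.683 and 0.623 RPKM under DMSO and 0.582, 1.13 and 0.66 RPKM with MI-2-2 in MLL-AF9 cells, 0.325, 0.293 and 0.315 RPKM under DMSO and 0.472, 0.306 and 0.485 RPKM with MI-2-2 in MLL-AF6 cells and 0.735, 0.94 and 0.858 RPKM under DMSO and 0.617, 0.713 and 0.521 RPKM with MI-2-2 in MLL-AF1p cells. The treated libraries of MLL-AF1p were all below the controls, and the groups overlapped in both other constructs. Hist1h1a reached at most 1.04 RPKM, and the testis gene Hist1h1t at most 4 reads in a library.

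**Figure D4:**
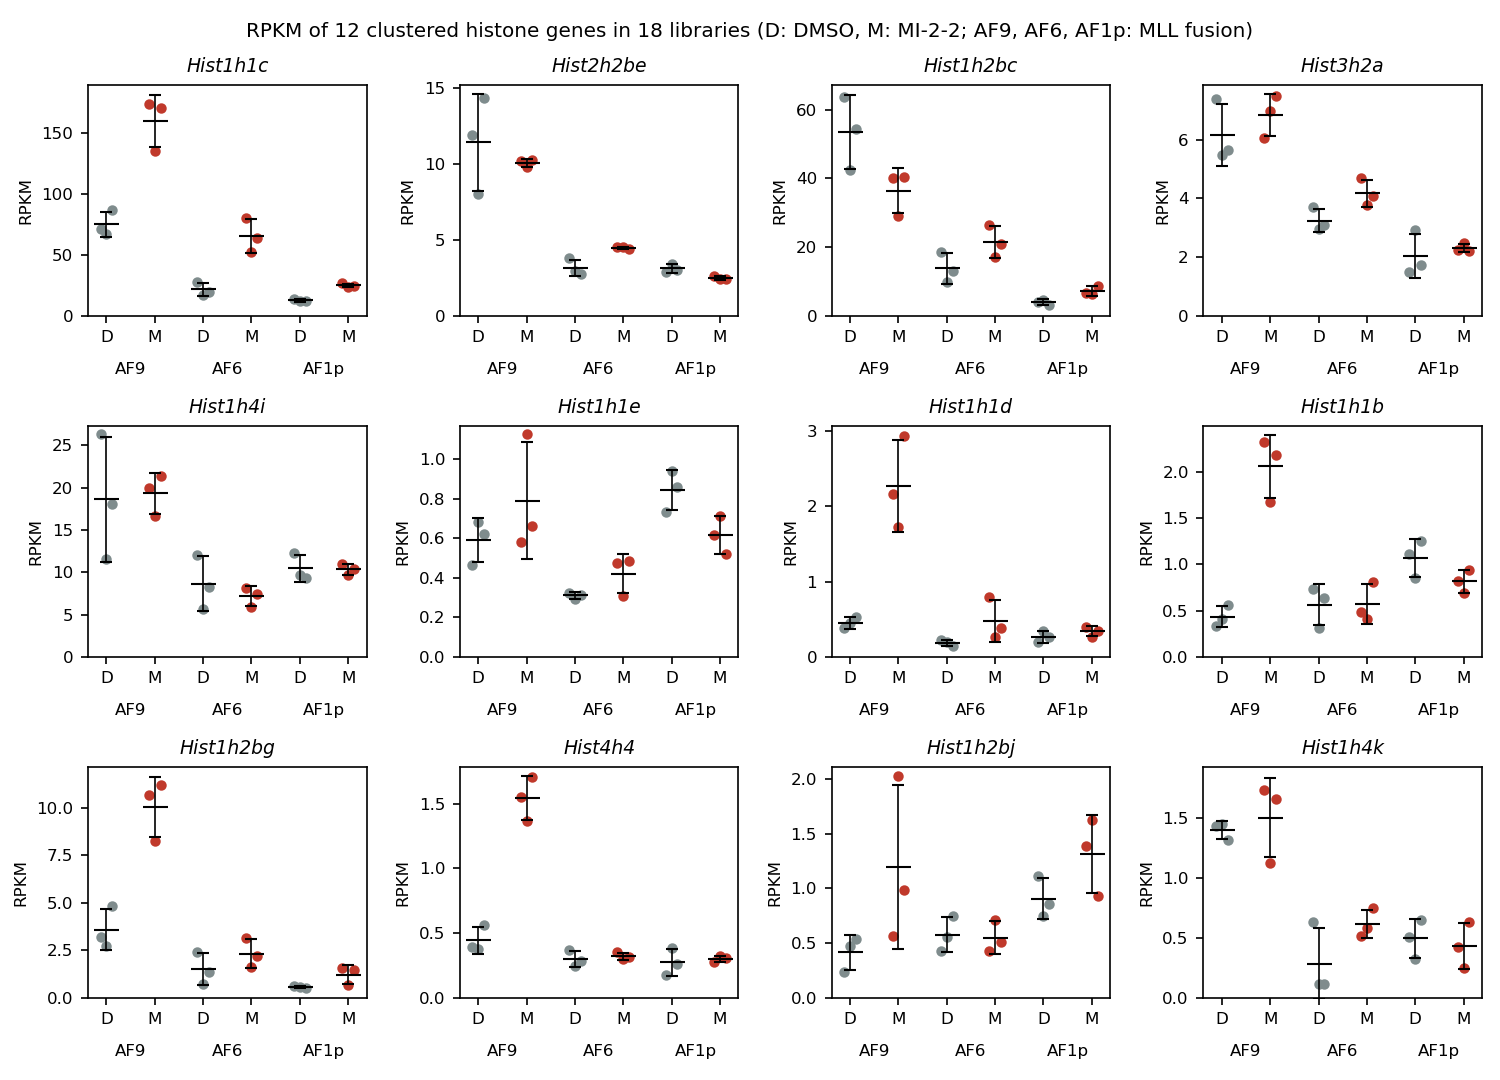
RPKM of the 12 named members in each library, 1 panel per gene with its own linear axis from 0; grey points are DMSO libraries, red points MI-2-2 libraries, and the bars mean ± SD (n = 3). Hist1h1c separates the treatments in each construct, Hist1h1d, Hist1h1b, Hist1h2bg and Hist4h4 stand out with MI-2-2 in MLL-AF9 cells, and Hist1h2bc is lower there with MI-2-2 and higher in MLL-AF1p cells.

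Hist1h2bc, an H2B gene of the first cluster, differed in direction between constructs. In MLL-AF9 cells it read 63.8, 42.4 and 54.4 RPKM under DMSO and 40, 29 and 40.4 RPKM with MI-2-2. In MLL-AF6 cells it read 18.5, 9.78 and 13.1 RPKM under DMSO and 26.5, 17.1 and 21 RPKM with MI-2-2. In MLL-AF1p cells it read 4.06, 4.72 and 3.11 RPKM under DMSO and 6.55, 6.22 and 8.78 RPKM with MI-2-2. The treated libraries lay below all controls in MLL-AF9 cells, above all controls in MLL-AF1p cells, and overlapped them in MLL-AF6 cells. The log2 difference in MLL-AF9 cells was −0.54 ± 0.23 (SE; limma, Benjamini-Hochberg adjusted p = 0.0542), which did not pass. It passed as lower without MLL-AF9 DMSO replicate 2 (−0.70, adjusted p = 0.0269), with median centring (−0.62, 0.0291) and with voom in limma on the recovered reads (−0.56, 0.0186). A replicate block in the limma fit gave it as lower too (−0.54, adjusted p = 0.0196). Hist1h2bc rose by 0.65 ± 0.23 (adjusted p = 0.025) in MLL-AF6 cells and by 0.78 ± 0.23 (adjusted p = 0.0112) in MLL-AF1p cells. The MLL-AF6 rise was lost without DMSO replicate 2 (0.43, adjusted p = 0.13), DMSO replicate 3 (0.63, 0.0606), MI-2-2 replicate 1 (0.49, 0.116) or MI-2-2 replicate 3 (0.65, 0.0536), and with the MLL-AF6 libraries fitted alone (0.0666). That in MLL-AF1p cells was lost without DMSO replicate 3 (0.64, adjusted p = 0.0581) or MI-2-2 replicate 3 (0.64, 0.0588).

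Hist2h2be, an H2B gene of the Hist2 cluster, showed small differences. In MLL-AF9 cells it read 12, 8.05 and 14.4 RPKM under DMSO and 10.2, 9.8 and 10.3 RPKM with MI-2-2. MLL-AF6 libraries had 3.79, 2.96 and 2.76 RPKM under DMSO and 4.53, 4.52 and 4.42 RPKM with MI-2-2. MLL-AF1p libraries had 2.92, 3.44 and 3.02 RPKM under DMSO and 2.64, 2.42 and 2.46 RPKM with MI-2-2. The treated libraries fell within the range of the controls in MLL-AF9 cells, above it in MLL-AF6 cells and below it in MLL-AF1p cells. It rose in MLL-AF6 cells (0.46 ± 0.15, limma, Benjamini-Hochberg adjusted p = 0.0163), a call lost without MLL-AF6 DMSO replicate 2 (0.42, 0.0505) or DMSO replicate 3 (0.38, 0.0737) and by voom with every gene kept (0.0553). It was at −0.14 in MLL-AF9 cells and −0.27 in MLL-AF1p cells, neither of which passed, although MLL-AF9 passed as lower without DMSO replicate 2 (−0.36, adjusted p = 0.0102) and MLL-AF1p with its own libraries fitted alone (adjusted p = 0.0148).

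Of the smaller H2B genes, Hist1h2bg and Hist1h2bj rose in MLL-AF9 cells. Hist1h2bg read 3.22, 2.73 and 4.8 RPKM under DMSO and 10.6, 8.22 and 11.2 RPKM with MI-2-2 there, with all treated libraries above all controls, and rose by 1.39 ± 0.29 (log2, SE; limma, Benjamini-Hochberg adjusted p = 0.000782). In MLL-AF6 cells it read 2.42, 0.746 and 1.34 RPKM under DMSO and 3.12, 1.63 and 2.22 RPKM with MI-2-2, and in MLL-AF1p cells 0.634, 0.596 and 0.498 RPKM under DMSO and 1.57, 0.662 and 1.44 RPKM with MI-2-2. The MLL-AF1p groups stood apart as well, but with differences of 0.55 (adjusted p = 0.117) and 0.64 (0.0849) the gene passed in neither. It passed in MLL-AF6 cells without DMSO replicate 1 (0.86, adjusted p = 0.016) and in MLL-AF1p cells without MI-2-2 replicate 2 (0.90, 0.0277) or with the MLL-AF1p libraries fitted alone (adjusted p = 0.0356). With a replicate block in the limma fit the gene passed in both (adjusted p = 0.0284 and 0.0166). Its divergent partner Hist1h2ae, an H2A gene whose start lies 176 bases away, went from a mean of 0.646 to 1.01 RPKM in MLL-AF9 cells and was not tested.

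Hist1h2bj rests on few reads, 2 to 6 under DMSO and 6 to 22 with MI-2-2 in MLL-AF9 cells. It read 0.236, 0.477 and 0.54 RPKM under DMSO and 0.569, 2.03 and 0.989 RPKM with MI-2-2 there, with MI-2-2 replicate 2 well above the others, and rose by 0.81 ± 0.25 (log2, SE; limma, Benjamini-Hochberg adjusted p = 0.012). The rise was lost without MLL-AF9 DMSO replicate 1 (0.66, adjusted p = 0.051) or MI-2-2 replicate 2 (0.48, 0.0738), and after quantile normalization (0.55, 0.0747) or with the MLL-AF9 libraries fitted alone (0.0752). It read 0.433, 0.555 and 0.75 RPKM under DMSO and 0.427, 0.715 and 0.511 RPKM with MI-2-2 in MLL-AF6 cells and 1.12, 0.747 and 0.857 RPKM under DMSO and 1.39, 1.63 and 0.929 RPKM with MI-2-2 in MLL-AF1p cells, where the groups overlapped. Hist2h2bb, the fifth H2B gene tested, did not pass in any construct.

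Hist3h2a was the one H2A gene that could be tested, and no construct passed. In MLL-AF9 cells it read 7.37, 5.46 and 5.63 RPKM under DMSO and 6.06, 6.98 and 7.49 RPKM with MI-2-2. Values were 3.7, 2.95 and 3.09 RPKM under DMSO and 4.68, 3.77 and 4.08 RPKM with MI-2-2 in MLL-AF6 cells. They were 1.5, 2.91 and 1.75 RPKM under DMSO and 2.24, 2.48 and 2.22 RPKM with MI-2-2 in MLL-AF1p cells. Treated libraries lay above all controls in MLL-AF6 cells and overlapped them in the other constructs. The log2 differences had 95% intervals of −0.20 to 0.50, −0.03 to 0.67 and −0.17 to 0.53 in MLL-AF9, MLL-AF6 and MLL-AF1p. Without MLL-AF1p DMSO replicate 2 the gene passed as higher in that construct (limma, 0.41, adjusted p = 0.0262), and with median centring in MLL-AF6 cells (0.40, 0.0498). Of histone H3, Hist2h3c1 could be tested. It was at 0.31, 0.26 and 0.45 and did not pass in any construct (limma, adjusted p = 0.261, 0.342 and 0.122).

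Among the H4 genes, Hist4h4, the lone gene of the fourth cluster, rose in MLL-AF9 cells. It read 0.391, 0.379 and 0.562 RPKM under DMSO and 1.55, 1.37 and 1.7 RPKM with MI-2-2 there, 24 to 47 reads against 104 to 123, with a log2 difference of 1.11 ± 0.11 (limma, Benjamini-Hochberg adjusted p = 6.2e-07). In MLL-AF6 cells it read 0.367, 0.246 and 0.286 RPKM under DMSO and 0.351, 0.3 and 0.312 RPKM with MI-2-2, and in MLL-AF1p cells 0.179, 0.382 and 0.263 RPKM under DMSO and 0.276, 0.324 and 0.308 RPKM with MI-2-2. The groups overlapped in both, and neither passed. Hist1h4i, the most read H4 gene, varied more between libraries of a group than between treatments. It read 26.3, 11.5 and 18 RPKM under DMSO and 19.9, 16.7 and 21.4 RPKM with MI-2-2 in MLL-AF9 cells, 12, 5.65 and 8.25 RPKM under DMSO and 8.12, 5.84 and 7.47 RPKM with MI-2-2 in MLL-AF6 cells and 12.3, 9.67 and 9.35 RPKM under DMSO and 11, 9.63 and 10.4 RPKM with MI-2-2 in MLL-AF1p cells. All 3 pairs of groups overlapped and none passed, with 95% intervals of −0.42 to 0.67, −0.76 to 0.34 and −0.55 to 0.54 for the log2 difference.

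Hist1h4k read 0.634, 0.113 and 0.114 RPKM under DMSO and 0.521, 0.582 and 0.748 RPKM with MI-2-2 in MLL-AF6 cells, on 1 to 6 reads per library, and the groups overlapped. It passed there (0.56 ± 0.22, limma, Benjamini-Hochberg adjusted p = 0.0381), and lost the call when any of 5 of the 6 libraries was left out, namely DMSO replicate 2 (adjusted p = 0.151), DMSO replicate 3 (0.16) and MI-2-2 replicates 1 (0.0503), 2 (0.0633) and 3 (0.121). It lost it too with every gene kept (adjusted p = 0.059), after quantile normalization (0.0904), with the MLL-AF6 libraries fitted alone (0.105) and by voom from RPKM 0.3 (0.0502). In MLL-AF9 cells it read 1.44, 1.45 and 1.32 RPKM under DMSO and 1.74, 1.12 and 1.66 RPKM with MI-2-2, and in MLL-AF1p cells 0.511, 0.326 and 0.654 RPKM under DMSO and 0.423, 0.248 and 0.63 RPKM with MI-2-2, overlapping in both. Hist1h4d and Hist1h4f passed in no construct.

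The response to MI-2-2 was compared between constructs by the difference of the log2 differences. Between MLL-AF9 and MLL-AF6, 3 members responded more in MLL-AF9 cells (24.04% of all tested genes did) and 2 less (9.02%). Between MLL-AF9 and MLL-AF1p, 3 responded more (21.4%) and 1 less (13.6%), and between MLL-AF6 and MLL-AF1p 1 responded more (11.6%) and 0 less (19.5%). Hist1h1b, Hist1h1d and Hist4h4 were the members with the larger rise in MLL-AF9 than in either other construct, and Hist1h2bc the one with the lower value. Hist1h1d and Hist4h4 passed the filter only through the treated MLL-AF9 libraries, which favours such a difference, and without both, 1 of 13 members responded more in MLL-AF9 than in each other construct. That member, Hist1h1b, also needed its 3 treated MLL-AF9 libraries to pass the filter. Only 2 further libraries, of MLL-AF1p under DMSO, reached RPKM 1, so the same limit holds for it. Hist1h1b differed by 1.44 ± 0.25 from MLL-AF6 and by 1.70 ± 0.25 from MLL-AF1p (limma, Benjamini-Hochberg adjusted p = 0.000511 and 0.000126). Hist1h2bc differed by −1.19 ± 0.32 and −1.33 ± 0.32 (adjusted p = 0.0112 and 0.00535). Hist2h2be was the other member with the lower value in MLL-AF9 than in MLL-AF6 cells (−0.59 ± 0.21, adjusted p = 0.0408), and the one with the higher value in MLL-AF6 than in MLL-AF1p cells (0.72 ± 0.21, 0.0168). The former was lost in all but 2 of the 12 fits that left out 1 library. The count between MLL-AF6 and MLL-AF1p was 3 without MLL-AF6 DMSO replicate 1 and 2 without MLL-AF6 MI-2-2 replicate 2. The 3 comparisons share libraries. Median centring shifted the difference between MLL-AF9 and MLL-AF6 by −0.16 and that between MLL-AF9 and MLL-AF1p by −0.12 at the median of all tested genes.

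The constructs differed already under DMSO. MLL-AF1p libraries were also read deeper than all others, so construct and depth cannot be told apart where MLL-AF1p is compared. Of the 15 members, 9 were higher in MLL-AF9 than in MLL-AF6 cells and 0 lower (24.5% and 29.1% of all tested genes), and 9 were higher and 3 lower in MLL-AF9 than in MLL-AF1p cells (28.6% and 36.5%). In MLL-AF6 cells, 4 were higher and 1 lower than in MLL-AF1p cells (23.7% and 28.8%), 3 in all without MLL-AF1p DMSO replicate 3. Hist1h2bc spanned the widest range, at means of 53.5, 13.8 and 3.96 RPKM in MLL-AF9, MLL-AF6 and MLL-AF1p, and each step passed (1.94 and 1.65, limma, Benjamini-Hochberg adjusted p = 3.9e-06 and 3.6e-05). Hist1h1c followed the same order at 75.0, 21.7 and 12.8 RPKM (1.78 and 0.72, adjusted p = 3.9e-07 and 0.00259). Hist2h2be was higher in MLL-AF9 than in both others (1.68 and 1.69, adjusted p = 1.7e-07 and 1.2e-07), while MLL-AF6 and MLL-AF1p did not differ beyond their spread (95% interval −0.31 to 0.32). Hist1h1b, Hist1h2bj and Hist1h4d went the other way and were higher in MLL-AF1p than in MLL-AF9 cells (−0.75, −0.62 and −0.77 for MLL-AF9 minus MLL-AF1p, adjusted p = 0.00158, 0.0387 and 0.0298). The Hist1h2bj call was lost without MLL-AF9 DMSO replicate 1 or 2 or without MLL-AF1p DMSO replicate 1 or 3, with adjusted p from 0.0505 to 0.142.

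Genes that work with the clustered histones were taken from lists made by function. Of 26 genes of DNA replication and of the chaperones that carry new histones, 16 rose and 2 fell with MI-2-2 in MLL-AF9 cells, 4 rose and 5 fell in MLL-AF6 cells, and 3 rose and 3 fell in MLL-AF1p cells. Of all tested genes, 28.5% rose and 27.9% fell in MLL-AF9 cells, 18.02% and 38.9% did in MLL-AF6 cells, and 19.1% and 26.3% in MLL-AF1p cells. Their median log2 difference was 0.38, −0.02 and 0.06, beside −0.001, −0.16 and −0.06 for all tested genes. Rrm2, a subunit of the enzyme that makes deoxynucleotides, went from 36.6 ± 13.8 to 68.3 ± 12.1 RPKM with MI-2-2 in MLL-AF9 cells (mean ± SD over 3 libraries; limma, 0.95, adjusted p = 0.00196), Mcm5 of the replicative helicase from 40.2 ± 11.4 to 69.4 ± 9.15 (0.81, 0.000862), and Pcna, the clamp of DNA polymerase, from 176 ± 26.1 to 232 ± 20.3 (0.41, 0.00547). Ccne1, cyclin E1, rose in all 3 constructs (0.42, 0.42 and 0.38), and Asf1a, a chaperone of H3 and H4, fell in all 3 (−0.44, −0.58 and −0.34). Under DMSO 20 of the 26 were lower in MLL-AF9 than in MLL-AF1p cells and 20 lower in MLL-AF6 than in MLL-AF1p cells, with 0 higher in either. Among all tested genes, 36.5% and 28.8% were lower in these comparisons and 28.6% and 23.7% higher. Pcna, for instance, was at 337 ± 29.5 RPKM in MLL-AF1p cells and 176 ± 26.1 in MLL-AF9 cells. The part of cell cycle position in the histone values was not tested.

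Of the genes that form and bind the histone mRNA end, 20 of 21 could be tested. In MLL-AF9 cells 1 rose and 6 fell, in MLL-AF6 cells 0 rose and 16 fell, and in MLL-AF1p cells 4 rose and 3 fell. Of all tested genes, 28.5%, 18.02% and 19.1% rose and 27.9%, 38.9% and 26.3% fell in these constructs. Slbp, which binds the stem-loop, was the one that rose in MLL-AF9 cells (47.6 ± 1.26 to 62.6 ± 5.47 RPKM, 0.39, limma, adjusted p = 0.00069), and it did not pass elsewhere, with 0.01 for MLL-AF6 and 0.13 for MLL-AF1p. Npat, the coactivator of histone genes, and Casp8ap2, a protein of the histone locus body, fell in MLL-AF6 cells (−0.36 and −0.26, adjusted p = 0.00126 and 0.0387) and did not pass in MLL-AF9 or MLL-AF1p cells. Lsm11 of the U7 particle fell in MLL-AF9 and MLL-AF6 cells (−0.20 and −0.39, adjusted p = 0.0464 and 0.000813), and its partner Lsm10 in MLL-AF1p cells (−0.29, 0.0233). Snrpf and Snrpg, which belong to the Sm ring of splicing particles and of U7, fell in MLL-AF9 cells (−0.92 and −0.62) and MLL-AF6 (−0.54 and −0.28). Ncbp2 of the cap-binding complex fell in the same constructs (−0.42 and −0.50), and Cpsf3, the nuclease that cuts the end, in all 3 (−0.31, −0.37 and −0.30).

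Factors of the ordinary polyA end and of polyA RNA decay, 15 tested, gave these counts: 1 rose and 6 fell in MLL-AF9 cells, 0 and 13 in MLL-AF6 cells, and 2 and 3 in MLL-AF1p cells. The shares of all tested genes were the same as above, 28.5%, 18.02% and 19.1% that rose and 27.9%, 38.9% and 26.3% that fell. Nudt21, a subunit of cleavage factor I that sets the choice of polyA site, fell in all 3 constructs (−0.70, −0.47 and −0.53, limma, adjusted p = 1.7e-05, 0.000718 and 0.000359). Zfc3h1 and Skiv2l2, which act with the nuclear exosome, fell in MLL-AF9 cells (−0.40 and −0.26) and MLL-AF6 (−0.64 and −0.50), and its nuclease Dis3 rose in MLL-AF9 cells (0.39) and fell in MLL-AF6 cells (−0.45).

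Many histone variants outside the clusters have mRNA with a polyA tail and are made outside S phase as well. The table held 14 of those listed, of which 10 could be tested. Of these, 3 rose and 3 fell in MLL-AF9 cells, 1 and 4 in MLL-AF6 cells, and 1 and 4 in MLL-AF1p cells. The shares of all tested genes that rose and fell were 28.5% and 27.9%, 18.02% and 38.9%, and 19.1% and 26.3%. H1f0, the linker histone of resting cells, was at 224 ± 7.39 RPKM under DMSO in MLL-AF9 cells, 73.7 ± 9.4 in MLL-AF6 cells and 105 ± 18.8 in MLL-AF1p cells, above Hist1h1c in each, and rose in MLL-AF9 cells to 280.4 ± 13 (0.32, limma, adjusted p = 0.0139). H3f3b, which codes for H3.3, rose in MLL-AF9 cells (0.73, adjusted p = 1.6e-05). H2afz, the H2A.Z gene, stood at 727 ± 28.8 RPKM under DMSO in MLL-AF9 cells, above any clustered member in any library, and rose in MLL-AF1p cells (0.28, adjusted p = 0.0087). The macroH2A gene H2afy, H2afj and H2afv fell in all 3 constructs, H2afy with log2 differences of −1.07, −1.04 and −0.45. The second macroH2A gene H2afy2 fell in MLL-AF6 and MLL-AF1p cells (−1.10 and −0.90) and was at −0.02 in MLL-AF9 cells.

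RNAs that have no polyA tail or are made by RNA polymerase III were read beside the members, since most clustered histone mRNA has no tail either. The precursor of ribosomal RNA, Rn45s, held 17950, 11570 and 11910 RPM under DMSO in MLL-AF9, MLL-AF6 and MLL-AF1p and 9609, 9715 and 8512 with MI-2-2 (means, n = 3), and it fell in MLL-AF9 cells (−0.98, limma, Benjamini-Hochberg adjusted p = 0.000938). Its treated libraries lay below all controls in each construct. The 119 small nucleolar and Cajal body RNAs together held 65.6 ± 6.99 and 63.7 ± 1.66 RPM in MLL-AF9 cells, 73.5 ± 9.5 and 45.8 ± 0.666 in MLL-AF6 cells, and 46.4 ± 2.87 and 51.0 ± 1.38 in MLL-AF1p cells (SD, n = 3). Of 89 such RNAs tested, 10 rose and 13 fell in MLL-AF9 cells, 0 and 34 in MLL-AF6 cells, and 11 and 1 in MLL-AF1p cells. Among all tested genes, the shares that rose and fell were 28.5% and 27.9%, 18.02% and 38.9%, and 19.1% and 26.3%. The sum of the small nucleolar and Cajal body RNAs overlapped between treatments in MLL-AF9 cells, was lower with MI-2-2 in MLL-AF6 cells and was higher in MLL-AF1p cells, without overlap in the last 2. Those named for the largest changes went different ways. Snord104 fell in all 3 constructs (−1.47, −1.36 and −0.87, limma), while Snord88a rose in MLL-AF9 cells (1.27) and MLL-AF1p cells (1.56). Snord38a fell in MLL-AF9 cells only (−1.55), and Scarna9 in MLL-AF6 cells only (−1.90). The part of these RNAs in the histone values was not tested.

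The labels name the cells only as mixed lineage leukemia. Of the myeloid markers, Elane and Prtn3, proteases of myeloid granules, were high in all 18 libraries (at least 844.5 and 520.9 RPKM). Their means were lower with MI-2-2 in MLL-AF9 cells (Elane 4916 RPKM under DMSO against 1087, Prtn3 1747 against 625.7) and MLL-AF6 (2264 against 916.8, and 1250 against 611.5). In MLL-AF1p cells they were 3748 against 2920 and 1593 against 1740. Mpo, the myeloperoxidase, had means under 1 RPKM in both MLL-AF9 groups and under DMSO in MLL-AF6 cells. Its mean was 6.72 RPKM with MI-2-2 in MLL-AF6 cells, and 35.4 under DMSO against 237.5 with MI-2-2 in MLL-AF1p cells. Means of Ctsg, Hoxa9 and Meis1 were lower with MI-2-2 in each construct. Ptprc was at 18.9 against 35.1 RPKM in MLL-AF9 cells, 36.3 against 35.7 in MLL-AF6 cells and 29.5 against 27.4 in MLL-AF1p cells. Of the other cell types, Cd3e of T cells and Hba-a1 and Hbb-b1 of red cells were at 0 in all 18. The highest of the other markers reported here were Pf4 of megakaryocytes, at most 4.39 RPKM in any library, Gp9 of the same cells, at most 1.34, Klf1 of red cells, at most 1.02, and Col1a1 of fibroblasts, at most 0.858. Markers of maturing macrophages and granulocytes moved with MI-2-2. Csf1r had a mean of 1.60 RPKM under DMSO against 80.6 with MI-2-2 in MLL-AF9 cells, 2.83 against 54.2 in MLL-AF6 cells, and 1.12 against 23.2 in MLL-AF1p cells, and Itgam 31.9 against 147.8, 75.3 against 161.0 and 57.2 against 97.4. The part of this change in the histone values was not tested.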

How the data were processed

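The labels' protocols describe polyA libraries (TruSeq mRNA v2, not stranded) from RNA with an integrity number of 8 or more. The authors deposited RPKM for 23418 genes in 18 libraries. Tools listed in the submitters' processing notes, with no role given, are edgeR, HTSeq, Bowtie2 2.0.0.7 and CASAVA 1.8.2, and the build is mm9. Here, reads were recovered as whole multiples of RPKM times length (100% of values within 0.05). RPM (reads per 1000000 counted reads) and shares use these reads. limma 3.58.1 in R 4.3.3 was fitted to log2(RPKM + 0.5) with 6 group means and a trended prior over 11238 genes, and was tested on simulated data. Members were named as the 6 with the largest mean share of reads and the 6 further called members with the largest change with MI-2-2. The members and all lists were chosen with earlier results of these data known. Other pseudocounts, filters, scalings, a replicate block, voom and left-out libraries were tried. Transcripts are from GENCODE M21, promoters from RefSeq.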

Additional observations from a re-analysis of the deposited data

Results flagged for a closer look

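Several members differed between constructs in their response to MI-2-2 by a test of the difference itself (limma, log2 scale, Benjamini-Hochberg adjusted over all tested genes). Against MLL-AF6, the response in MLL-AF9 cells was larger by 1.44 for Hist1h1b (adjusted p = 0.000511), by 1.06 for Hist1h1d (0.00509) and by 1.07 for Hist4h4 (0.000143), and it differed by −1.19 for Hist1h2bc (0.0112) and −0.59 for Hist2h2be (0.0408). Against MLL-AF1p, it was larger by 1.70 for Hist1h1b (0.000126), 1.40 for Hist1h1d (0.000663) and 1.06 for Hist4h4 (0.000164), and differed by −1.33 for Hist1h2bc (0.00535). For Hist2h2be the response in MLL-AF6 cells exceeded that in MLL-AF1p cells by 0.72 (0.0168). The Hist2h2be difference between MLL-AF9 and MLL-AF6 lost its call in 10 of 12 fits that left out 1 library, which gave −0.82 to −0.42. That of Hist1h1d between the same constructs lost its call with voom on the recovered reads (1.02, adjusted p = 0.168). Hist1h1d and Hist4h4 entered the test only through the treated MLL-AF9 libraries, and Hist1h1b would not have entered it without them.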

How the results depend on the processing

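Over 1881 values of named members under other settings, 1719 kept their call and direction, 81 lost a call, 31 gained one, 50 changed sign without a call in either fit, and 0 changed sign where either was called. Of 46 calls, 30 held under all settings tried. Low counts limit most members: with every gene kept, 61 members entered the test, and with genes kept from RPKM 0.3, 47. Counts below stand beside the share of all tested genes called at the same setting. Members called with MI-2-2 in MLL-AF9 cells (6 in the report) were then 19 and 19 by limma (40.3% and 54.4%) and 15 and 15 by voom (38.4% and 53.1%). For the response of MLL-AF9 against MLL-AF1p (4) they were 8 and 7 by limma (24.3% and 34.2%), and against MLL-AF6 (5) 9 from RPKM 0.3 (32.2%), while voom under the filter of the report gave 3 (29.9%). Under DMSO, MLL-AF9 against MLL-AF6 (9) had 16 and 14 by limma (39.6% and 52.0%) and 15 by voom with every gene kept (39.0%); MLL-AF9 against MLL-AF1p (12) had 19 and 20 (48.3% and 63.4%), and 22 and 19 by voom (55.1% and 64.7%); MLL-AF6 against MLL-AF1p (5) had 8 and 9 (36.0% and 50.1%), and 13 and 13 by voom (40.7% and 53.1%). In MLL-AF6 cells (5) quantile normalization left 3 (52.7%) and a fit of only the groups compared 2 (51.9%), and in MLL-AF1p cells (2) the latter gave 5 (61.0%). Leaving out 1 library gave 1 to 7 in MLL-AF6 cells, 1 to 3 in MLL-AF1p cells, 1 to 3 for the response of MLL-AF6 against MLL-AF1p and 3 to 5 for these constructs under DMSO. That response (1) had 2 with median centring (30.1%) and 2 with quantile normalization (30.4%). Ratios of the summed reads were 1.07, 1.34 and 1.06 without Hist1h1c, and, over members under the filter alone, 1.29 in MLL-AF6 cells and 1.02 in MLL-AF1p cells. Voom with the wider filters was chosen after seeing the data. Replicate numbers were shared between treatments, but 5 of 9 same-numbered pairs had deviations that correlated over 0.1 (0.001 to 0.557) and 5 of 9 DMSO libraries were closest to their own number, so the numbers were not taken to pair libraries. DMSO replicate 2 was closest to its own number in MLL-AF9, MLL-AF6 and MLL-AF1p (0.46, 0.557 and 0.21), and Hist1h1c was lowest in replicate 2 of every group. So a pairing of part of the libraries remains possible. With a replicate block the calls with MI-2-2 were 7, 6 and 3 in MLL-AF9, MLL-AF6 and MLL-AF1p (61.5%, 62.7% and 52.8% of all), and the response of MLL-AF6 against MLL-AF1p had 2 (39.0%). The block added Hist1h2bc as lower in MLL-AF9 cells (−0.54, adjusted p = 0.0196), Hist1h2bg in MLL-AF6 cells (0.55, 0.0284) and MLL-AF1p (0.64, 0.0166), the Hist1h1c response of MLL-AF6 against MLL-AF1p (0.64, 0.00699) and of MLL-AF9 against MLL-AF6 (−0.49, 0.0276), and the Hist1h2bg response of MLL-AF9 against MLL-AF6 (0.84, 0.0314) and MLL-AF1p (0.75, 0.047).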
